A study of Mus musculus with 7 samples.

Results

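Keratins are the intermediate filament proteins of epithelial cells, and thymic epithelium is among the tissues whose cell types are told apart by them. The members described here were all genes, in any of 7 single-cell libraries of mouse thymic epithelium, whose symbol is Krt followed only by digits and an optional final letter. The rule gave 49 of the 20839 genes listed. By symbol, 26 are type I (acidic) keratins and 22 are type II (basic to neutral) keratins. *Krt222*, a keratin-like gene on chromosome 11, was given no type by its symbol and is counted in neither type here. The type I genes lie on mouse chromosome 11 in 25 cases, and *Krt18* lies on chromosome 15 beside *Krt8*. All 22 type II genes lie on chromosome 15. Of the 49, 27 were listed in all 7 libraries. On build GRCm38 (GENCODE vM21) the 7 most abundant lie at chr15:101411043-101430313 (*Krt7*, plus strand), chr15:101707070-101712898 (*Krt5*, minus), chr15:101996698-102004482 (*Krt8*, minus), chr15:102028180-102032027 (*Krt18*, plus), chr11:100140810-100148665 (*Krt19*, minus), chr11:100203162-100207548 (*Krt14*, minus) and chr11:100256217-100261029 (*Krt17*, minus). A grouping by the tissue in which each is best known placed 42 members: 5 in simple epithelia, 3 in basal layers, 4 in stressed or hyperproliferative epithelium, 8 in suprabasal and mucosal layers, 1 in cornea and 21 in hair and the inner root sheath.

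A keratin filament is built from heterodimers of a type I with a type II chain, so that a cell needs members of both types. *Krt8* and *Krt18* are the usual pair of simple epithelia, *Krt5* and *Krt14* that of basal layers, and *Krt1* and *Krt10* that of suprabasal epidermis. In the thymus, *Krt8* marks much of the cortex, *Krt5* and *Krt14* mark much of the medulla, and medullary cells with the regulator Aire transcribe many genes that are otherwise restricted to peripheral tissues.

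The study asked how medullary thymic epithelial cells (mTECs) are related by lineage, with droplet-based single-cell RNA sequencing of flow-sorted thymic epithelial cells. Each of the 7 libraries was made from 3 pooled thymi and is therefore 1 sample, and the treatments differ between all but the controls. A lineage tracing library came from 6-week-old mice that carried Aire-CreERT2-R26-CAG-Stopfl-zsGreen on C57BL/6. In these mice a tamoxifen-dependent Cre under control of *Aire* starts a green reporter, so that only cells in which *Aire* is or was active can carry the label, and the mice had 2 mg of tamoxifen on alternate days over 10 days. The other 6 libraries came from C57BL/6 mice given 3 injections of 100 µg of antibody within 1 week. In the 2 isotype control libraries the antibody had no target in the mouse, and the thymi were taken at week 2 (4 weeks of age) and week 10 (12 weeks of age). In the 4 anti-RANKL libraries it blocked RANKL, a signal for the maturation of mTECs, and the thymi were taken at week 2, week 4, week 6 and week 10, at 4, 6, 8 and 12 weeks of age.

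The libraries held 8453 cells and 89007173 UMIs. A UMI (unique molecular identifier) stands for 1 captured transcript molecule and is counted once, whatever the length of the transcript. The lineage tracing library had 1387 cells, 15549812 UMIs and a median of 9213 UMIs per cell. The isotype controls had 22197691 UMIs at week 2 and 13304728 at week 10, with medians of 16809 and 8333 per cell. After anti-RANKL the totals were 15089673, 7563528, 3857876 and 11443865 UMIs at weeks 2, 4, 6 and 10, with medians of 11145.5, 4779, 4299.5 and 7332 per cell. Weeks 4 and 6 after anti-RANKL stood apart as the shallowest, and they alone held cells under 2000 UMIs, 116 and 61 of them. Over the 21 pairs of libraries, 50 cell barcodes were shared, between 0 and 7 per pair.

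Of all cells, 8220 had no UMI of *Ptprc*, the gene of the leukocyte antigen CD45, and these were sorted into 4 classes by the deposited value. This is ln(1 + x), where x is the count of a gene scaled to a total of 10000 in each cell. A class holds the cells that pass 1 rule and no other. Cells with *Aire* above 1.5 are called *Aire*-high (1582 cells), and those with *Ccl21a*, a chemokine of medullary stroma, above 4 are called *Ccl21a*-high (2873 cells). Cells with a UMI of *Trpm5*, an ion channel of tuft cells, are called *Trpm5*-positive (315 cells). Cells with at least 2 of *Psmb11*, *Ackr4* and *Prss16*, genes of cortical epithelium and its progenitors, are called cortical-marker cells (463). A further 2222 cells passed none of the rules and 765 passed several. In the order of the libraries above, the lineage tracing library first and anti-RANKL week 10 last, *Aire*-high cells numbered 106, 410, 515, 45, 18, 72 and 416, *Trpm5*-positive cells 43, 57, 33, 81, 34, 16 and 51.

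Summed by list, markers that the rules did not use had their highest median of the 4 classes in the class they belong to. The 6 markers of *Aire*-positive cells, such as *Fezf2* and *Cd80*, summed to a median of 1126 CPM (UMIs per 1000000 UMIs of the summed cells) over the libraries in *Aire*-high cells and to 245, 258 and 272 in *Ccl21a*-high, *Trpm5*-positive and cortical-marker cells. The 5 markers of *Ccl21a*-positive mTECs summed to 2650 in their own class, against 1406 in cortical-marker cells, the next highest of the 4. The 9 tuft cell markers, such as *Pou2f3*, summed to a median of 4898 in *Trpm5*-positive cells (lowest library 4034), and no library of the other 3 classes exceeded 299. The 7 cortical markers had a median of 7436 in cortical-marker cells (lowest library 5246), 3046 in *Ccl21a*-high cells, 1944 in *Aire*-high cells and 828 in *Trpm5*-positive cells, and the *Aire*-high range, up to 5428, reached into that of cortical-marker cells. The 5 markers of all thymic epithelium, *Epcam*, *Cdh1*, *Cldn4*, *Foxn1* and *Pax9*, had summed medians between 809 and 1104 in the 4 classes. Some single genes of the class lists did not follow the sums. *Ccl19*, of the *Ccl21a*-positive list, had a median of 811 CPM in *Aire*-high and 700 in *Ccl21a*-high cells. *Itgb4*, of the same list, had 81.8 in cortical-marker and 78.8 in *Ccl21a*-high cells. *Cd274*, of the cortical list, had 43.3 in *Aire*-high and 40.1 in cortical-marker cells.

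Markers of other cell types were present at unequal levels, although the study describes a gate for EpCAM-positive, CD45-negative cells in its sort of thymic epithelium. The 6 fibroblast markers summed, in cortical-marker cells, to 663, 1478, 868, 1564, 1332, 608 and 542 CPM in the same order of libraries, against 35.1 to 256 in *Aire*-high and 173 to 574 in *Ccl21a*-high cells, whose highest value met the cortical-marker range. *Dcn* alone made up 516 to 1548 of this, between 2 and 5 of the 6 genes were above 0, *Pdgfra* was at 0 in 6 of the 7 libraries and *Col1a1* in 5. The 5 markers of dendritic cells and macrophages summed to 694, 679, 667, 455, 514, 256 and 669 in *Aire*-high cells. They summed to 20.6 to 135 in *Ccl21a*-high cells, 0 to 223 in *Trpm5*-positive cells and 11.3 to 522 in cortical-marker cells, whose range met that of *Aire*-high cells. In *Aire*-high cells *Lyz2* led at 235 to 669, and *Itgax* was at 0 at weeks 2, 4 and 6 after anti-RANKL. The 3 parathyroid markers summed to 15271 in the cortical-marker cells of anti-RANKL week 6, of which *Pth* was 15265 and *Casr* was at 0, and to 102, 10.4, 5.46, 177, 111 and 0 in the other libraries. Their highest sum was 923 in *Aire*-high, 817 in *Ccl21a*-high and 774 in *Trpm5*-positive cells. T-cell markers (8 genes) summed to at most 145 in any class and library, against 682 to 5665 in droplets with *Ptprc* and T-cell markers. Medians were at most 56.6 for the 4 B-cell markers (*Trpm5*-positive cells), 11.3 for the 4 endothelial markers and 118 for the 3 red cell markers (*Aire*-high cells). The part of these transcripts in the keratin levels was not tested. Without anti-RANKL week 6, the library with the highest *Pth* level in cortical-marker cells, no keratin lost a call in any of the 4 comparisons, which bears on that library alone.

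Cells of no class held many of these transcripts too, which bears on all their keratin values below. The parathyroid markers summed there to 6411 CPM in the lineage tracing library, to 474 and 3.07 in the controls and to 16078, 5235, 10206 and 34 at weeks 2, 4, 6 and 10 after anti-RANKL. *Pth* led in 6 of 7 libraries, *Gcm2* was at 0 in 4 and *Casr* in 1. The dendritic cell and macrophage markers ranged from 98.1 to 1912 (median 377; *Lyz2* leading), the fibroblast markers from 213 to 1402 (331; *Dcn* leading) and the red cell markers from 0.715 to 1628 (25.5). Their part in the keratin values of cells of no class was not tested.

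Keratins made up the largest share of the transcripts in *Ccl21a*-high cells. The 49 members together reached 9576 CPM in the lowest library, 12564 at the median and 14528 in the highest there. They reached 4779, 5574 and 7463 in *Aire*-high cells, 5009, 6217 and 7011 in *Trpm5*-positive cells, and 6607, 8828 and 10058 in cortical-marker cells. The lowest *Ccl21a*-high library lay above every *Aire*-high and *Trpm5*-positive library, whose ranges overlapped each other, and the cortical-marker values of the week 10 control (10058) and of anti-RANKL week 2 (9576) reached into the *Ccl21a*-high range. In 68 droplets with *Ptprc* and at least 2 of 7 T-cell markers, here called T-cell droplets, keratins reached 2088 to 13238. The 5 epithelial markers had a median of 522 there and the 7 cortical markers one of 5389, so these droplets carried epithelial RNA and cannot set a background share. Free RNA and a second cell in the droplet cannot be told apart here. Cells of no class had 6015, 8034 and 9707. The leading member was *Krt17* in *Ccl21a*-high cells of all 7 libraries, with 30.3% to 42.7% of keratin UMIs, and *Krt18* in cortical-marker cells of all 7, with 24.7% to 44.7%. In *Aire*-high cells it was *Krt17* in 6 libraries and *Krt8* in the week 10 control (31.4%), and in *Trpm5*-positive cells *Krt18* in 5 and *Krt8* in 2.

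To compare classes, UMIs were summed over the cells of a class in each library, and the sums were compared within libraries with limma on log2(CPM + 10), over the 8779 genes with a mean of at least 10 CPM. A gene is called at an adjusted p under 0.05. Of the 49 keratins, 15 passed this filter and 34 did not, with *Krt79* just inside at a mean of 11.2 CPM and *Krt77* just outside at 8.11. The 15 tested were all 5 keratins of simple epithelia, all 3 of basal layers, 2 of stress, 2 of suprabasal and mucosal layers, and 3 without a role group. A keratin that passed only through the class where it is abundant had to differ between classes. Without that class the mean was under 10 CPM for *Krt20* and *Krt76* (7.13 and 3.46 without *Aire*-high cells), *Krt79* (7.44), and *Krt23* and *Krt222* (7.14 and 6.95 without *Trpm5*-positive cells). The differences of these 5 from that class follow in part from the filter and are given as a description, and the counts of called members describe these 15 and support nothing about the family. The p-values set a class difference against a residual variance that limma pools over all 4 classes and moderates across genes. The residuals come from 7 libraries under different treatments. The p-values do not measure the spread of a single class difference. Values in each library are described for the 7 keratins with a mean of at least 100 CPM, *Krt17* (2251), *Krt18* (1943), *Krt8* (1658), *Krt14* (837), *Krt5* (725), *Krt7* (416) and *Krt19* (192).

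Between *Ccl21a*-high and *Aire*-high cells, 6 of the 15 keratins were called higher in *Ccl21a*-high cells and 5 lower, where 25.4% of all genes tested were called higher and 18.3% lower. Between *Trpm5*-positive and *Aire*-high cells, 4 were called higher and 6 lower (29.3% and 17.2% of all genes). Between cortical-marker and *Aire*-high cells the counts were 6 and 5 (30.4% and 16.9%), and between cortical-marker and *Ccl21a*-high cells 3 and 4 (9.53% and 5.99%). Both types had members in both directions. Of the 9 type I keratins tested, 4, 3, 4 and 2 were called higher in the 4 comparisons and 2, 4, 2 and 2 lower. Of the 5 type II keratins, 2, 0, 2 and 1 were called higher and 2 lower in each. In *Trpm5*-positive against *Aire*-high cells, where limma called no type II keratin higher, 1 of the 5 (*Krt8*) was higher at an unadjusted p under 0.05. The median log2 fold change of the 15 was 0.48, -0.31, -0.08 and 0.19, against 0.11, 0.11, 0.15 and 0.08 over all genes.

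**Figure D1:**
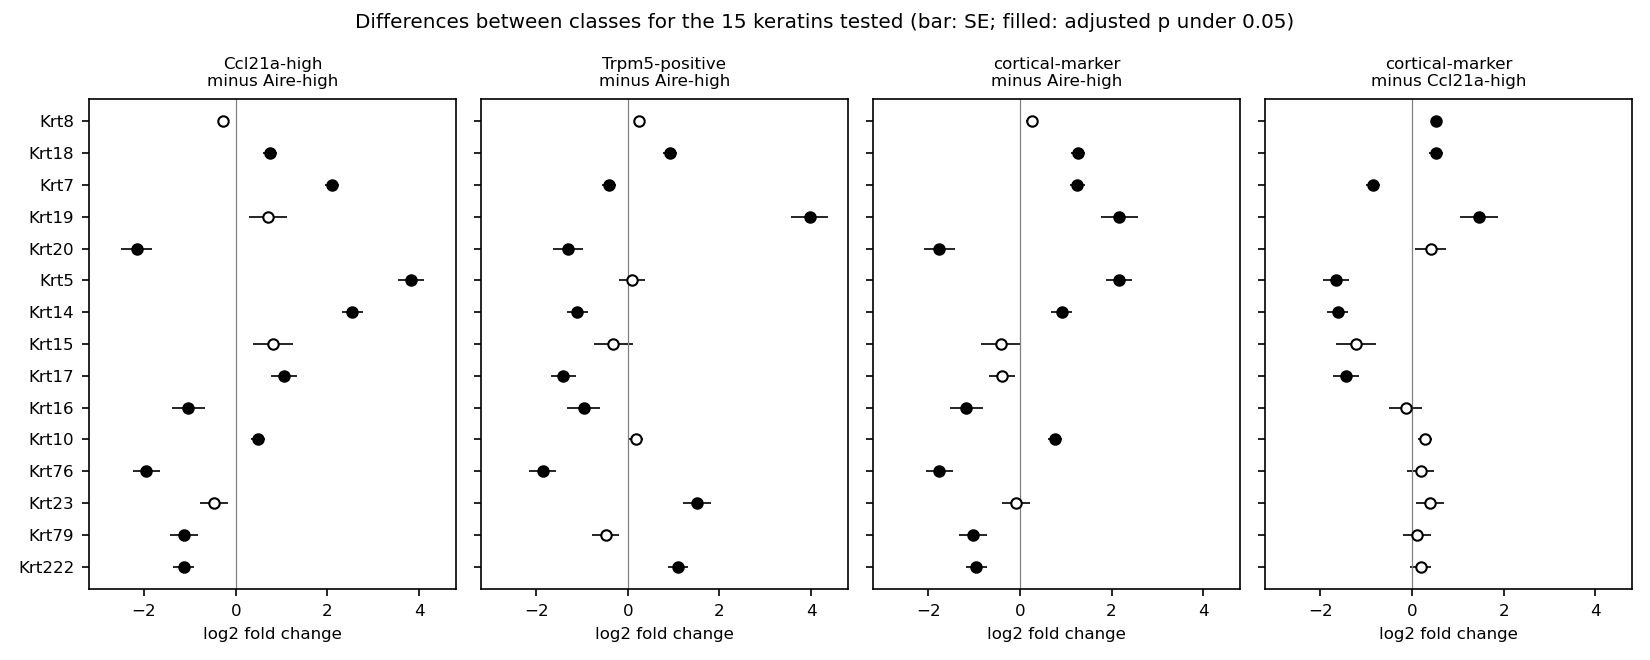
Log2 fold changes between classes for the 15 keratins tested, 1 panel per comparison; bars are standard errors from limma over 7 libraries, and filled points have an adjusted p under 0.05. The largest differences are those of *Krt5* (3.82) between *Ccl21a*-high and *Aire*-high cells and of *Krt19* (3.97) between *Trpm5*-positive and *Aire*-high cells; the unfilled points of *Krt5* and *Krt10* in the latter comparison change sign with size factors.

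*Krt8*, the type II keratin of simple epithelia, was abundant in every class and differed little. It ranged from 1160 to 1991 CPM in *Aire*-high cells (median 1555), from 1100 to 1549 in *Ccl21a*-high cells (1242), from 1262 to 2595 in *Trpm5*-positive cells (1936) and from 1408 to 2510 in cortical-marker cells (1667). All 4 ranges overlapped. *Krt8* was called in 1 comparison, higher in cortical-marker than in *Ccl21a*-high cells in 6 of 7 libraries (limma, log2 fold change 0.53, SE 0.12, adjusted p = 0.00234). That call was lost in the controls and lineage tracing library alone (0.34, adjusted p = 0.300; 0.000112 to 0.300 over 18 alternatives). Against *Aire*-high cells it had log2 fold changes of -0.28 in *Ccl21a*-high cells (adjusted p = 0.0619, lower in 6 of 7), 0.25 in *Trpm5*-positive cells (adjusted p = 0.0879, higher in 7 of 7) and 0.26 in cortical-marker cells (adjusted p = 0.0799, higher in 5 of 7). The first was called without the week 2 control (-0.34, adjusted p = 0.0294), with size factors (-0.39, adjusted p = 0.00961) and with cells thinned to 2000 UMIs (adjusted p = 0.0438; 0.00961 to 0.621 over its alternatives), and the second with at least 30 cells in a sum (0.36, adjusted p = 0.0238; 0.0238 to 0.954). The third was called without anti-RANKL week 4 (0.34, adjusted p = 0.0308), with overlapping classes (0.32, adjusted p = 0.00083) and with at least 30 cells (0.32, adjusted p = 0.0315; 0.00083 to 0.806). With size factors the second was 0.01 and the third 0.04.

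*Krt18*, the type I partner of *Krt8*, was lowest in *Aire*-high cells. There it ranged from 833 to 1763 CPM (median 991), against 1362 to 2228 in *Ccl21a*-high cells (1768), 1534 to 2934 in *Trpm5*-positive cells (1798) and 1630 to 4025 in cortical-marker cells (2461). *Aire*-high cells had the lowest value of the 4 classes in every library, although the ranges overlapped through the *Aire*-high cells of anti-RANKL week 4 (1763), and the highest cortical-marker values were those of the week 10 control (3994) and of anti-RANKL week 10 (4025). Against *Aire*-high cells *Krt18* was called higher in all 3 other classes, in 7 of 7 libraries each. The log2 fold change was 0.74 (SE 0.15, limma adjusted p = 0.000176) in *Ccl21a*-high cells, 0.92 (SE 0.15, adjusted p = 1.35e-05) in *Trpm5*-positive cells and 1.27 (SE 0.15, adjusted p = 1.11e-07) in cortical-marker cells, and each call held in all 18 alternatives. *Krt18* was also higher in cortical-marker than in *Ccl21a*-high cells in 6 of 7 libraries (0.53, SE 0.15, adjusted p = 0.0138). That call was lost without the week 10 control (0.43, adjusted p = 0.0731), without the library block (0.53, adjusted p = 0.0831), with the mean of deposited values (0.36, adjusted p = 0.0934) and in the controls and lineage tracing library alone (0.40, adjusted p = 0.313), over a range of 0.00281 to 0.313 in 18 alternatives.

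*Krt7*, a type II keratin of simple and ductal epithelia, was highest in *Ccl21a*-high cells, where it ranged from 636 to 1105 CPM (median 830). It ranged from 356 to 676 in cortical-marker cells (441), from 150 to 241 in *Aire*-high cells (199) and from 81.3 to 230 in *Trpm5*-positive cells (148). Neither the *Ccl21a*-high nor the cortical-marker range met that of *Aire*-high cells, whereas the *Aire*-high and *Trpm5*-positive ranges overlapped. Against *Aire*-high cells *Krt7* was higher in 7 of 7 libraries in *Ccl21a*-high cells (limma, log2 fold change 2.10, SE 0.15, adjusted p = 7.33e-11) and in cortical-marker cells (1.26, SE 0.15, adjusted p = 2.77e-07). It was lower in cortical-marker than in *Ccl21a*-high cells in 7 of 7 (-0.84, SE 0.15, adjusted p = 0.000314), a call lost in the controls and lineage tracing library alone (-0.70, adjusted p = 0.0848; 8.29e-06 to 0.0848 over 18 alternatives). In *Trpm5*-positive cells it was lower than in *Aire*-high cells in 6 of 7 libraries (-0.41, SE 0.15, adjusted p = 0.0304), and this call depended on single libraries. It was lost without the lineage tracing library (-0.25, adjusted p = 0.186), without anti-RANKL week 4 (-0.33, adjusted p = 0.110) and without anti-RANKL week 10 (-0.37, adjusted p = 0.0954), without the library block (-0.41, adjusted p = 0.0751), without the filter (adjusted p = 0.0580) and in the controls and lineage tracing library alone (-0.49, adjusted p = 0.116). With cells counted in each class whose rule they pass, its direction turned (0.40, adjusted p = 0.0571). It was -0.64 with size factors and -0.72 with thinned cells, and the adjusted p ran from 0.000741 to 0.186 over 18 alternatives.

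*Krt19*, the smallest type I keratin and one of simple and glandular epithelia, had its highest median of the 4 classes in *Trpm5*-positive cells. It ranged from 176 to 1061 CPM there (median 440), from 46.4 to 249 in cortical-marker cells (135), from 14.7 to 105 in *Ccl21a*-high cells (48.3) and from 3.73 to 40.3 in *Aire*-high cells (29.5). All *Trpm5*-positive and all cortical-marker libraries lay above the highest *Aire*-high library, and the *Ccl21a*-high and *Aire*-high ranges overlapped. The *Trpm5*-positive range overlapped that of cortical-marker cells and that of cells of no class, from 60.8 to 367 (135). Against *Aire*-high cells *Krt19* was higher in 7 of 7 libraries in *Trpm5*-positive cells (limma, log2 fold change 3.97, SE 0.41, adjusted p = 1.85e-08) and in cortical-marker cells (2.17, SE 0.41, adjusted p = 0.000102), and both calls held in all 18 alternatives. With the mean of deposited values in place of summed UMIs these differences were 1.16 (adjusted p = 1.32e-08; 1.795e-09 to 0.000477 over the alternatives) and 0.57 (adjusted p = 0.000508; 4.09e-05 to 0.0334), on a scale where 1 highly expressing cell counts for less. The difference between *Ccl21a*-high and *Aire*-high cells did not pass the test (0.71, adjusted p = 0.168, higher in 6 of 7). *Krt19* was higher in cortical-marker than in *Ccl21a*-high cells in 5 of 7 libraries (1.46, SE 0.41, adjusted p = 0.0144). That call was lost without the week 2 control (1.18, adjusted p = 0.0869), without anti-RANKL week 2 (1.17, adjusted p = 0.0777), without the filter (adjusted p = 0.0502), with overlapping classes (0.90, adjusted p = 0.104), with cells thinned to 2000 UMIs (1.22, adjusted p = 0.187) and in the controls and lineage tracing library alone (1.58, adjusted p = 0.0973), over a range of 0.00636 to 0.187.

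*Krt20*, a type I keratin of intestinal epithelium and Merkel cells with a mean of 16.4 CPM, passed the filter only through *Aire*-high cells, so that lower values elsewhere were to be expected from that choice and their p-values support nothing. Its class means were 44.4 CPM in *Aire*-high, 0.859 in *Ccl21a*-high, 14.6 in *Trpm5*-positive and 5.94 in cortical-marker cells. It was lower than in *Aire*-high cells in *Ccl21a*-high cells (limma, log2 fold change -2.16, adjusted p = 7.37e-06, lower in 7 of 7 libraries), in *Trpm5*-positive cells (-1.30, adjusted p = 0.00223, lower in 6 of 7) and in cortical-marker cells (-1.76, adjusted p = 0.000102, lower in 7 of 7). The *Aire*-high and *Ccl21a*-high ranges did not meet. At this level the size of the fold depends on the pseudocount, and the first difference was -4.55 with 1 CPM (adjusted p = 2.9e-05) and -0.84 with 50 (adjusted p = 2.63e-05; 2.135e-07 to 0.000166 over 17 alternatives). With the mean of deposited values it was -0.21.

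**Figure D2:**
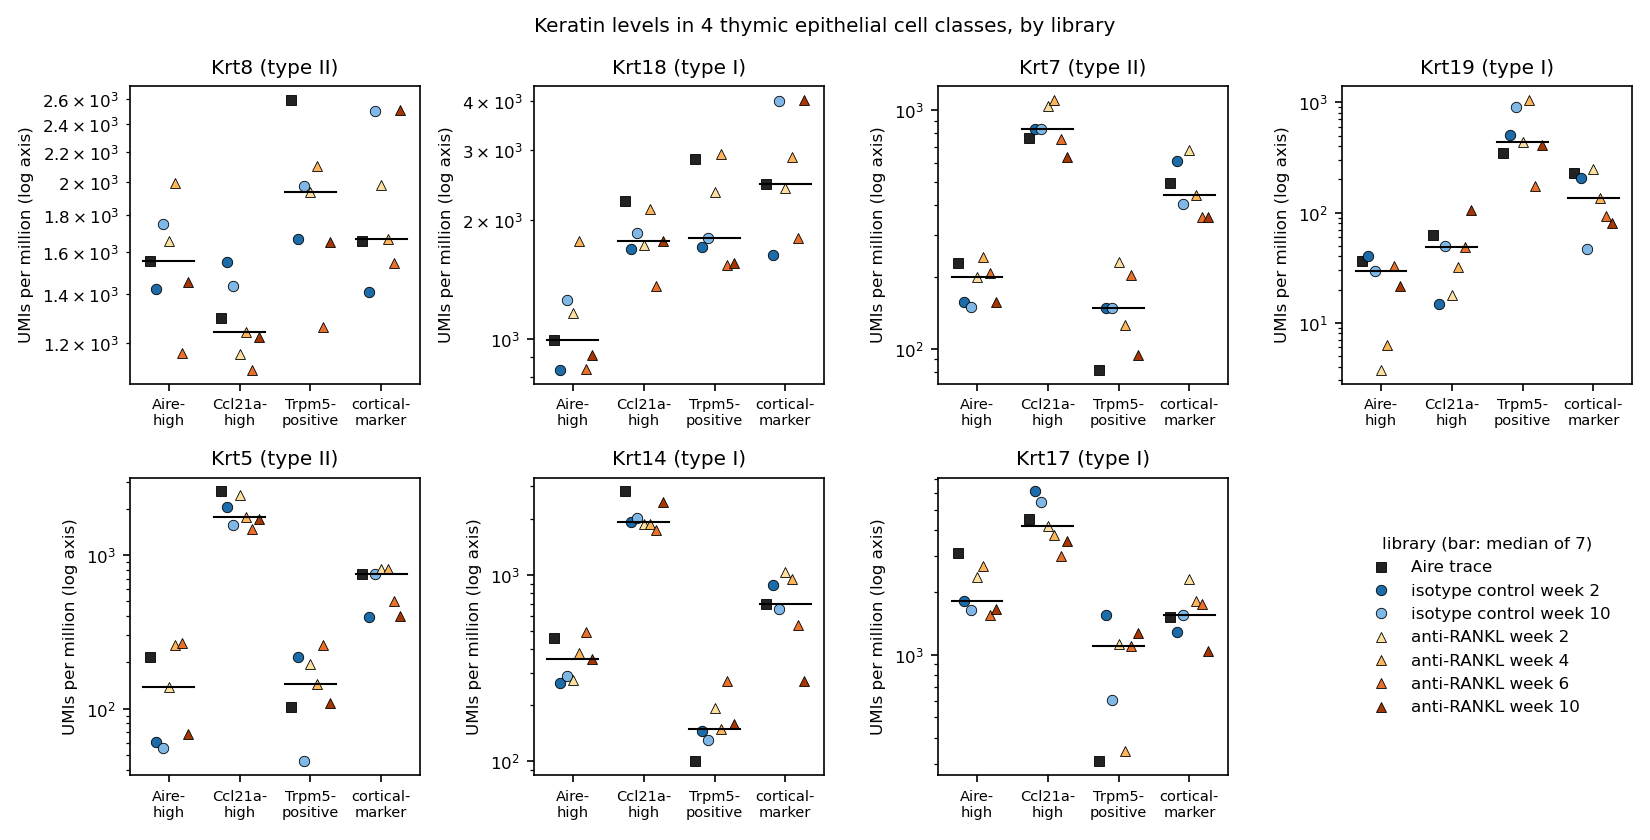
Levels of the 7 most abundant keratins in 4 classes, in CPM on a log axis; each point is 1 library and each bar the median of 7. *Krt5* is at least 1483 in every *Ccl21a*-high library and at most 269 in every *Aire*-high library, and *Krt19* is at least 176 in every *Trpm5*-positive library and at most 40.3 in every *Aire*-high library.

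*Krt5*, the type II keratin of basal layers, differed widely between 3 of the 4 classes. It ranged from 1483 to 2616 CPM in *Ccl21a*-high cells (median 1783), from 394 to 814 in cortical-marker cells (755), from 55.0 to 269 in *Aire*-high cells (138) and from 45.2 to 258 in *Trpm5*-positive cells (144). The *Ccl21a*-high range lay above the cortical-marker range and that above both others, while the *Aire*-high and *Trpm5*-positive ranges covered each other. Against *Aire*-high cells *Krt5* was higher in 7 of 7 libraries in *Ccl21a*-high cells (limma, log2 fold change 3.82, SE 0.28, adjusted p = 8.00e-11) and in cortical-marker cells (2.17, SE 0.28, adjusted p = 6.68e-07), and it was lower in cortical-marker than in *Ccl21a*-high cells in 7 of 7 (-1.65, SE 0.28, adjusted p = 0.000146). All 3 calls held in 18 of 18 alternatives, although the second was 0.95 with the mean of deposited values (adjusted p = 1.69e-05; 2.135e-09 to 0.000953) and the last to -1.07 with overlapping classes (adjusted p = 0.0452; 9.67e-11 to 0.0452). Between *Trpm5*-positive and *Aire*-high cells the difference was 0.09 (SE 0.28, adjusted p = 0.811), with a higher value in 3 libraries and a lower one in 4. Its direction turned with size factors (-0.13), with the mean of deposited values (-0.22) and without the week 2 control (-0.17), and with overlapping classes it was called higher (1.20, adjusted p = 0.00778; 0.00778 to 0.987 over 18 alternatives).

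The *Krt5* level of *Aire*-high cells differed between libraries. It was 60.3 and 55.0 CPM in the week 2 and week 10 controls, 68.1 at anti-RANKL week 10, 138 at week 2, 216 in the lineage tracing library, and 260 and 269 at anti-RANKL weeks 4 and 6. The libraries with more than 100 CPM of *Krt5* were also those with more *Ccl21a* transcripts in *Aire*-high cells, at 1030 CPM at anti-RANKL week 2, 931 in the lineage tracing library, 2099 at week 4 and 1790 at week 6, against 331, 270 and 355 in both controls and at anti-RANKL week 10. They also held a larger share of *Ccl21a*-high cells, 43.6%, 57.4%, 56.0% and 37.6% of the cells without *Ptprc* against 12.4%, 13.7% and 17.6%. In the order of the libraries above, *Trpm5*-positive cells had 102, 216, 45.2, 196, 144, 258 and 109 CPM of *Krt5* beside 1015, 221, 277, 1078, 1498, 1588 and 166 of *Ccl21a*. The part of transcripts from *Ccl21a*-high cells in the *Krt5* level of *Aire*-high cells was not tested, and these side values were chosen after the data had been seen.

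*Krt14*, the type I partner of *Krt5*, was also highest in *Ccl21a*-high cells. It ranged from 1742 to 2827 CPM in *Ccl21a*-high cells (median 1921), from 270 to 1041 in cortical-marker cells (703), from 262 to 493 in *Aire*-high cells (355) and from 99.9 to 271 in *Trpm5*-positive cells (150). The *Ccl21a*-high range lay above all others, and the cortical-marker range met that of *Aire*-high cells through anti-RANKL week 10 (270). *Krt14* was higher in *Ccl21a*-high than in *Aire*-high cells in 7 of 7 libraries (limma, log2 fold change 2.54, SE 0.23, adjusted p = 1.62e-09) and higher in cortical-marker than in *Aire*-high cells in 6 of 7 (0.92, SE 0.23, adjusted p = 0.00173). It was lower in cortical-marker than in *Ccl21a*-high cells in 7 of 7 (-1.62, SE 0.23, adjusted p = 1.06e-05). These 3 calls held in 18 of 18 alternatives, the second at 0.43 with the mean of deposited values (adjusted p = 0.0245; 0.000122 to 0.0334). *Krt14* was lower in *Trpm5*-positive than in *Aire*-high cells in 7 of 7 (-1.10, SE 0.23, adjusted p = 0.000284). This difference was -1.79 with cells thinned to 2000 UMIs and turned to 0.23 with overlapping classes (adjusted p = 0.371; 2.45e-06 to 0.371 over 18 alternatives).

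*Krt15*, a second type I keratin of basal cells with a mean of 18.4 CPM, passed the test in no comparison with the settings used throughout. Its log2 fold change was 0.81 in *Ccl21a*-high against *Aire*-high cells (limma adjusted p = 0.132, higher in 5 of 7 libraries) and -1.22 in cortical-marker against *Ccl21a*-high cells (adjusted p = 0.0549, lower in 6 of 7). Both depended on single libraries. The first was called without anti-RANKL week 2 (1.01, adjusted p = 0.0295), with the mean of deposited values (0.10, adjusted p = 0.0245) and in the controls and lineage tracing library alone (1.22, adjusted p = 0.015; 0.015 to 0.394 over 17 alternatives). The second was called without anti-RANKL week 2 (-1.40, adjusted p = 0.0111) or week 4 (-1.56, adjusted p = 0.0229), with the mean of deposited values (-0.12, adjusted p = 0.0124), with thinned cells (-1.57, adjusted p = 0.0433) and in the controls and lineage tracing library alone (-1.93, adjusted p = 0.00392; 0.00392 to 0.216). In *Trpm5*-positive against *Aire*-high cells *Krt15* was called in the controls and lineage tracing library alone (-1.08, adjusted p = 0.0263; 0.0263 to 0.929), against -0.31 (adjusted p = 0.584) with all libraries.

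*Krt17*, a type I keratin induced in stressed and regenerating epidermis, was the most abundant member. It ranged from 2980 to 6150 CPM in *Ccl21a*-high cells (median 4188), from 1551 to 3102 in *Aire*-high cells (1809), from 1040 to 2316 in cortical-marker cells (1552) and from 307 to 1553 in *Trpm5*-positive cells (1099). The *Ccl21a*-high range lay above the cortical-marker and *Trpm5*-positive ranges and met the *Aire*-high range only between anti-RANKL week 6 (2980) and the *Aire*-high cells of the lineage tracing library (3102). *Krt17* was higher in *Ccl21a*-high than in *Aire*-high cells in 7 of 7 libraries (limma, log2 fold change 1.05, SE 0.28, adjusted p = 0.00368, called in 18 of 18 alternatives) and lower in cortical-marker than in *Ccl21a*-high cells in 7 of 7 (-1.43, SE 0.28, adjusted p = 0.000647). The latter was -0.74 with overlapping classes (adjusted p = 0.00445; 1.49e-10 to 0.0165 over 18 alternatives, all called). It was lower in *Trpm5*-positive than in *Aire*-high cells in 7 of 7 (-1.40, SE 0.28, adjusted p = 0.000213), a call lost with overlapping classes (-0.29, adjusted p = 0.161; 1.34e-11 to 0.161 over 18 alternatives). Between cortical-marker and *Aire*-high cells it did not pass the test (-0.39, adjusted p = 0.267, lower in 6 of 7). That difference was called with the mean of deposited values (-0.68, adjusted p = 0.000389) and with cells thinned to 2000 UMIs (-0.51, adjusted p = 0.0499), and turned with overlapping classes (0.26, adjusted p = 0.199; 0.000389 to 0.454).

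*Krt16*, a type I keratin of hyperproliferative epidermis with a mean of 16 CPM, was lower than in *Aire*-high cells in *Ccl21a*-high cells (limma, log2 fold change -1.03, adjusted p = 0.0226, lower in 6 of 7 libraries), in *Trpm5*-positive cells (-0.96, adjusted p = 0.0314, lower in 5 of 7) and in cortical-marker cells (-1.17, adjusted p = 0.00994, lower in 5 of 7). The mean of *Krt16* without *Aire*-high cells was 10.1 CPM, just above the filter of 10 CPM. The part of the filter in these differences was not tested. The calls depended on single libraries. Without the lineage tracing library all 3 were lost (-0.80, -0.66 and -0.89, adjusted p = 0.0958, 0.166 and 0.0565). The first was also lost without the week 2 control (-1.02, adjusted p = 0.0504), the week 10 control (-0.97, adjusted p = 0.0693) or anti-RANKL week 2 (-1.02, adjusted p = 0.0583), and the second without the same libraries (-0.82, -0.87 and -0.90, adjusted p = 0.110, 0.0967 and 0.0883). Over 17 alternatives the adjusted p ran from 0.00072 to 0.114, from 0.000202 to 0.235 and from 0.000146 to 0.0565. With a pseudocount of 1 CPM, or without the filter, the first and second were lost as well (adjusted p = 0.114 and 0.0525, and 0.0520 and 0.0686). The first was lost with thinned cells (adjusted p = 0.0704), and the second with a pseudocount of 50 (adjusted p = 0.0514) and with overlapping classes (-0.40, adjusted p = 0.235). *Krt6a* and *Krt6b*, type II partners of *Krt16* and *Krt17* whose near-identical sequences make their separate counts uncertain, were not tested. Summed, they ranged from 0 to 1.39 CPM in *Aire*-high cells (median 0.506), from 0.707 to 4.91 in *Ccl21a*-high cells (4.09), from 0 to 20.9 in *Trpm5*-positive cells (0), from 0 to 9.65 in cortical-marker cells (3.21) and from 3.21 to 76.7 in cells of no class (13.8).

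Of the suprabasal and mucosal keratins, *Krt10* and *Krt76* were tested. Against *Aire*-high cells they went in opposite directions, but the direction of *Krt76* follows in part from the filter. In cortical-marker against *Ccl21a*-high cells both were higher in 6 of 7 libraries, and neither was called. *Krt10*, the type I keratin of differentiating epidermis with a mean of 44.9 CPM, was higher than in *Aire*-high cells in *Ccl21a*-high cells (limma, log2 fold change 0.48, adjusted p = 0.0141) and in cortical-marker cells (0.77, adjusted p = 0.000232), in 7 of 7 libraries each. Both calls were lost with cells thinned to 2000 UMIs (0.85, adjusted p = 0.0848; 7.54e-05 to 0.0848 over 17 alternatives, and 0.70, adjusted p = 0.153; 4.69e-06 to 0.153). In *Trpm5*-positive cells it did not pass the test (0.17, adjusted p = 0.399, higher in 6 of 7; -0.01 with size factors), but it was called with overlapping classes (0.31, adjusted p = 0.00962) and in the controls and lineage tracing library alone (0.50, adjusted p = 0.0352; 0.00962 to 0.953 over 17 alternatives). *Krt76*, the type II keratin of palate epithelium with a mean of 13.9 CPM, was lower than in *Aire*-high cells in *Ccl21a*-high cells (-1.95, adjusted p = 4.75e-06, lower in 7 of 7), in *Trpm5*-positive cells (-1.86, adjusted p = 9.84e-06, lower in 7 of 7) and in cortical-marker cells (-1.76, adjusted p = 1.86e-05, lower in 6 of 7). It too passed the filter only through *Aire*-high cells (class means 45.3, 2.37, 3.75 and 4.26 CPM), so its lower values were to be expected from that choice and their p-values support nothing. The folds of *Krt76* ran from -3.50 to -0.17, from -3.65 to -0.16 and from -2.94 to -0.15 over 17 alternatives, smallest with the mean of deposited values.

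The other 3 keratins tested have no role group here. *Krt23*, a type I keratin, had a mean of 18.3 CPM and was higher in *Trpm5*-positive than in *Aire*-high cells in 7 of 7 libraries (limma, log2 fold change 1.51, adjusted p = 0.000221). *Krt222* (mean 17.1) was higher in the same comparison in 7 of 7 (1.09, adjusted p = 0.00026), and lower than in *Aire*-high cells in *Ccl21a*-high cells (-1.14, adjusted p = 0.000172, lower in 7 of 7) and in cortical-marker cells (-0.95, adjusted p = 0.00112, lower in 6 of 7). *Krt79*, a type II keratin of sebaceous and hair follicle openings, was lower than in *Aire*-high cells in *Ccl21a*-high cells (-1.13, adjusted p = 0.00332) and in cortical-marker cells (-1.02, adjusted p = 0.00682), in 6 of 7 libraries each. In *Trpm5*-positive cells *Krt79* did not pass the test (-0.49, adjusted p = 0.194, lower in 5 of 7) but was called without anti-RANKL week 4 (-0.87, adjusted p = 0.0118; 0.0118 to 0.822 over 17 alternatives). At these levels the folds depend on the pseudocount and on the summary of cells. Over the alternatives the difference of *Krt23* ran from 0.20 to 2.53, those of *Krt222* from 0.25 to 1.46, from -2.81 to -0.13 and from -2.30 to -0.12, and those of *Krt79* in *Ccl21a*-high and cortical-marker cells from -1.98 to -0.14 and from -1.97 to -0.13. All 3 passed the filter only through the class in which they were highest.

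These directions were checked under another scaling. With size factors in place of totals, the median log2 fold change of all genes moved from 0.11 to -0.06 in *Trpm5*-positive against *Aire*-high cells and from 0.15 to -0.0009 in cortical-marker against *Aire*-high cells. Relative to these medians, *Krt19* differed by 3.86 and 3.83 in *Trpm5*-positive cells under the respective scalings, *Krt18* by 0.81 and 0.74, *Krt17* by -1.51 and -1.58, and *Krt5* by -0.01 and -0.07. In cortical-marker cells the same values were 2.02 and 1.97 for *Krt5*, 1.12 and 1.06 for *Krt18* and 0.76 and 0.71 for *Krt14*. No called keratin changed direction with size factors, and of the others *Krt5* and *Krt10* did so in *Trpm5*-positive against *Aire*-high cells. The calls of all genes split differently. Of those called, 58.2%, 63.0%, 64.2% and 61.4% were higher in the 4 comparisons with totals, 48.8%, 44.0%, 47.4% and 47.0% with size factors, and 48.1%, 55.3%, 58.7% and 66.4% with the mean of deposited values.

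The 34 keratins under a mean of 10 CPM, among them all 21 of hair and the inner root sheath, were higher in sum in *Aire*-high cells than in *Ccl21a*-high cells in 6 of 7 libraries. Summed, they had 250 CPM in the *Aire*-high cells of the lineage tracing library, 257 and 198 in the isotype controls, and 108, 0, 97.5 and 207 at weeks 2, 4, 6 and 10 after anti-RANKL. The 0 of week 4 comes from 18 cells and 157702 UMIs, which allows up to 19 CPM. The sum ranged from 18.9 to 64.5 in *Ccl21a*-high cells (median 34.4), from 0 to 143 in *Trpm5*-positive cells (42.2) and from 39.1 to 156 in cortical-marker cells (62.7). All *Aire*-high libraries but anti-RANKL week 4 lay above the *Ccl21a*-high range. Of the 34, 24 had their highest mean of the 4 classes in *Aire*-high cells, 6 in cortical-marker, 4 in *Trpm5*-positive and 0 in *Ccl21a*-high cells, where 45.2%, 18.9%, 25.1% and 10.8% of all 11969 genes under 10 CPM did. Cells of no class ranged from 34 to 520 and had a higher median (272) than *Aire*-high cells (198).

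The rare members in *Aire*-high cells belong to several tissues. Mean levels in *Aire*-high and *Ccl21a*-high cells were 16.9 and 0.614 CPM for *Krt71* and 10.7 and 0.207 for *Krt73*, both type II keratins of the inner root sheath. They were 14.6 and 1.64 for *Krt77* of sweat duct epithelium, 12.6 and 2.22 for *Krt12*, the type I keratin of cornea, and 11.9 and 0.742 for *Krt13*, a type I keratin of oral and esophageal mucosa. *Krt77* also had 11.4 in *Trpm5*-positive cells. The *Ccl21a*-high mean was the higher one for *Krt33b* (4.86 and 6.52), *Krt6a* (0.398 and 3.01), *Krt1* (3.885 and 4.453) and *Krt80* (0.045 and 0.049). *Krt81*, a hair keratin, had 9.40 and 1.24, and its counts, like those of *Krt83* and *Krt86* and of *Krt33a* and *Krt33b*, are uncertain because the genes are near copies. A given *Aire*-high cell held few of them. With each cell thinned at random to 2000 UMIs, the share with a UMI of any of the 34 was 0% in the lowest library, 22.6% at the median and 29.2% in the highest for *Aire*-high cells (373 of 1579 in all), and 2.34%, 6.31% and 8.57% for *Ccl21a*-high cells (131 of 2771). It was 0%, 6.98% and 15.2% for *Trpm5*-positive cells (22 of 303), 6.19%, 9.26% and 18.4% for cortical-marker cells (41 of 462), and 5.7%, 17.2% and 28.3% for cells of no class (398 of 2177). The ranges overlapped. The most in 1 cell was 6. Of the T-cell droplets, 5 of 64 (7.81%) had one. Sums over these members were chosen after the data had been seen.

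Without the filter on low levels, limma called 13 of the 34 rare keratins lower in *Ccl21a*-high than in *Aire*-high cells and 0 higher, with 18 and 0 at an unadjusted p under 0.05, where 15.7% and 12.6% of 20748 genes were called. In *Trpm5*-positive against *Aire*-high cells it called 10 lower and 0 higher (14 and 1 unadjusted; 14% and 15.0% of genes), and in cortical-marker against *Aire*-high cells 8 lower and 1 higher (13 and 3 unadjusted; 14.8% and 15.2%). In cortical-marker against *Ccl21a*-high cells it called 0 in either direction (0 lower and 3 higher unadjusted; 3.02% and 4.28%).

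**Figure D3:**
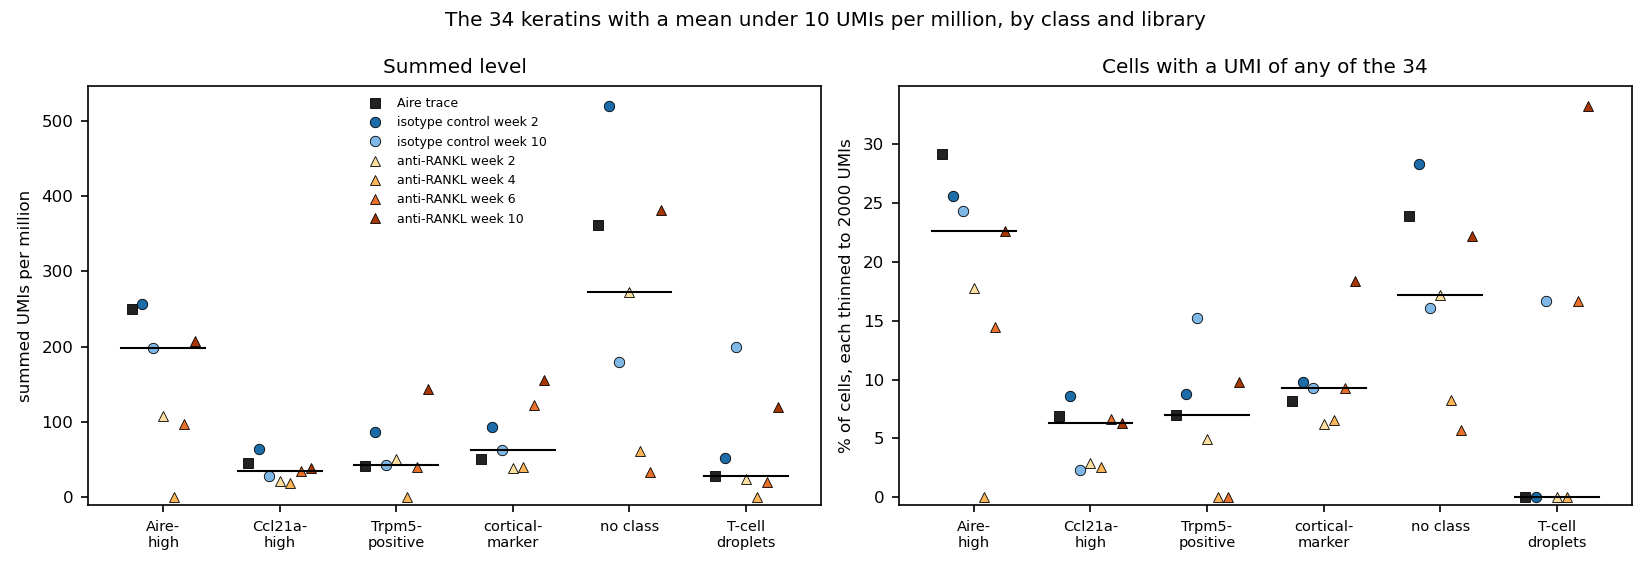
The 34 keratins with a mean under 10 CPM, as summed CPM (left) and as the percent of cells, each thinned to 2000 UMIs, with a UMI of any of them (right); points are libraries and bars medians of 7, and T-cell droplets are those with *Ptprc* and T-cell markers. Summed levels in *Aire*-high cells are 97.5 or more in all libraries but anti-RANKL week 4, which is at 0, and 64.5 or less in all *Ccl21a*-high libraries.

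Type I transcripts outnumbered type II transcripts in every class and library. The ratio of all type I to all type II keratin UMIs was 1.59 in the lowest library, 1.77 at the median and 2.22 in the highest for *Aire*-high cells, and 1.68, 2.08 and 2.44 for *Ccl21a*-high cells. It was 1.34, 1.85 and 1.90 for *Trpm5*-positive cells, 1.65, 1.71 and 2.00 for cortical-marker cells and 1.84, 2.01 and 2.25 for cells of no class. All of these ranges overlapped. *Krt8* had the larger part of the type II side in 3 of the 4 classes, with 67.2% to 81.5% of type II UMIs in *Aire*-high cells, 73.2% to 92.0% in *Trpm5*-positive cells and 56.1% to 73.9% in cortical-marker cells, against 24.7% to 37.1% in *Ccl21a*-high cells. In cells of no class its part was 45.4% to 68%.

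Within the usual pairs the balance differed between classes. The ratio of *Krt18* to *Krt8* was 0.587, 0.701 and 0.885 (lowest, median and highest library) in *Aire*-high cells. It was 1.09, 1.45 and 1.72 in *Ccl21a*-high cells, 0.913, 1.10 and 1.39 in *Trpm5*-positive cells, and 1.16, 1.48 and 1.73 in cortical-marker cells. *Aire*-high cells thus had less *Krt18* than *Krt8* in all 7 libraries, and their range met none of the other 3 classes, but it met that of cells of no class, at 0.745, 0.886 and 1.34. The ratio of *Krt14* to *Krt5* was 1.46, 2.13 and 5.22 in *Aire*-high cells, with the highest values in both controls and at anti-RANKL week 10, where *Krt5* was lowest. It was 0.755, 1.08 and 1.43 in *Ccl21a*-high cells, below the whole *Aire*-high range. It was 0.674, 1.06 and 2.25 in cortical-marker cells and 0.672, 1.04 and 2.87 in *Trpm5*-positive cells, which both reached into that range. The ratio of *Krt19* to *Krt8* was 0.132, 0.251 and 0.504 in *Trpm5*-positive cells and 0.00225, 0.0169 and 0.0283 in *Aire*-high cells. It was 0.00952, 0.0345 and 0.0858 in *Ccl21a*-high cells, 0.0186, 0.0811 and 0.147 in cortical-marker cells and 0.0356, 0.108 and 0.259 in cells of no class. The ranges of cortical-marker cells and of cells of no class reached into that of *Trpm5*-positive cells. These ratios were chosen after the data had been seen and carry no test.

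**Figure D4:**
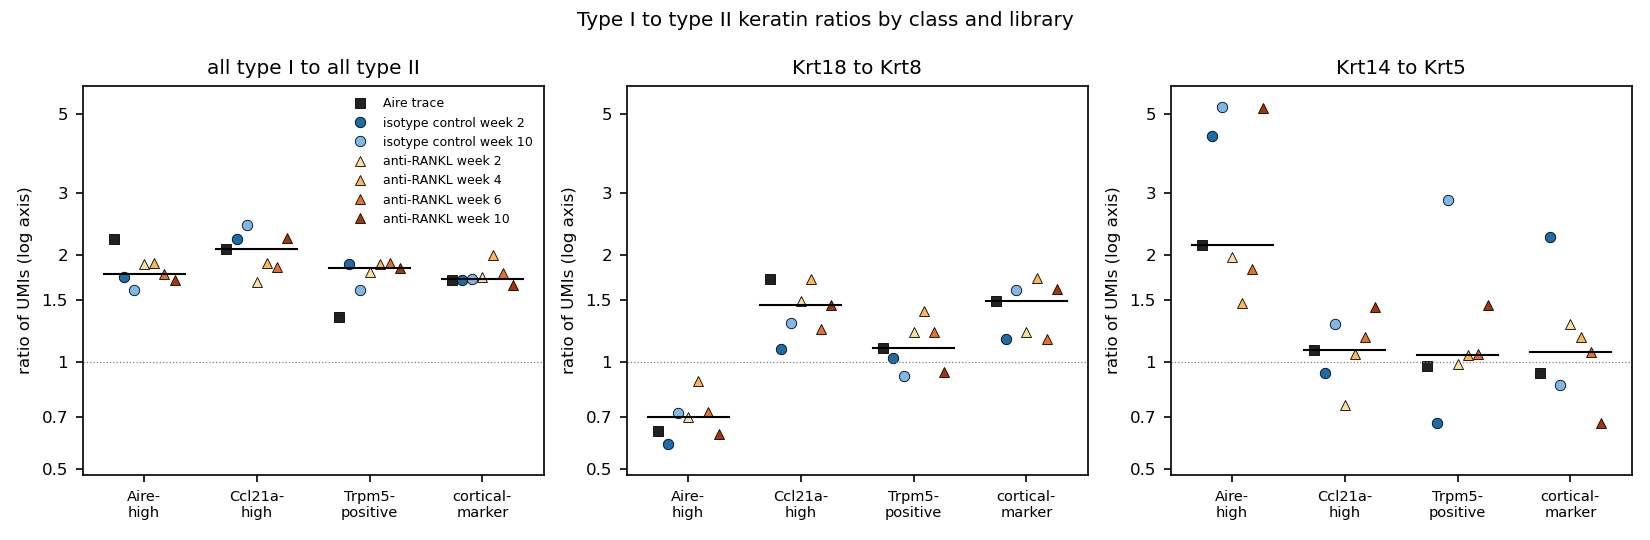
Ratios of UMIs on a log axis for all type I to all type II keratins, *Krt18* to *Krt8* and *Krt14* to *Krt5*, in 4 classes; each point is 1 library, each bar the median of 7, and the dotted line marks a ratio of 1. *Krt18* to *Krt8* is at most 0.885 in *Aire*-high cells and at least 0.913 in the other 3 classes plotted, while the ratios of the types overlap.

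Most single cells held transcripts of both types. With cells thinned to 2000 UMIs, the share with a UMI of both was 87.5% in the lowest library, 89.9% at the median and 94.4% in the highest for *Aire*-high cells (1410 of 1579), and 98.6%, 99.0% and 99.5% for *Ccl21a*-high cells (2749 of 2771). It was 87.7%, 91.4% and 100% for *Trpm5*-positive cells (276 of 303) and 93.4%, 96.3% and 98.1% for cortical-marker cells (446 of 462). The *Ccl21a*-high range lay above those of *Aire*-high and cortical-marker cells. Of the *Aire*-high cells without both, 122 had type I only, 36 type II only and 11 neither, and *Ccl21a*-high cells had 18, 4 and 0. Thinning left out 3 *Aire*-high, 102 *Ccl21a*-high, 12 *Trpm5*-positive and 1 cortical-marker cell that were shallower. Without thinning, the shares over all libraries were 99.2%, 99.9%, 98.1% and 99.8%. Among T-cell droplets, which carry epithelial markers, it was 43 of 64 (67.2%) thinned and 55 of 68 (80.9%) not thinned, with medians per library of 2839 to 31499 UMIs in T-cell droplets and 4218 to 21326 in the 4 classes before thinning, and of 4630 to 31499 and 4321 to 21326 in those deep enough to be thinned. A thinned cell held a median of 4 keratins in *Aire*-high cells, 5 to 6 in *Ccl21a*-high, 3 to 4 in *Trpm5*-positive and 4 to 5 in cortical-marker cells.

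Detection of single members is given by library, since pooled shares depend on how many cells each library gives. With cells thinned to 2000 UMIs, *Krt5* had a UMI in 83.6% to 94.3% of *Ccl21a*-high cells (median library 87.9%), 35.3% to 61.7% of cortical-marker cells (37.7%), 8.54% to 37.7% of *Aire*-high cells (18.9%) and 6.06% to 38.5% of *Trpm5*-positive cells (16.3%). The *Ccl21a*-high range lay above the others, and the other 3 overlapped. *Krt14* was detected in 78.6% to 91.9%, 24.5% to 62.7%, 32.6% to 66.7% and 1.75% to 30.8% in the same order, and *Krt7* in 55.3% to 82.1%, 44.9% to 58.8%, 16.7% to 37.8% and 9.09% to 38.5%. The *Krt14* range of *Trpm5*-positive cells lay below that of *Aire*-high cells, and the *Krt7* ranges of these classes overlapped. *Krt19* was detected in 7.69% to 51.5% of *Trpm5*-positive cells (29.4%), 4.65% to 31.4% of cortical-marker cells (14.8%), 2.14% to 13.1% of *Ccl21a*-high cells (5.26%) and 0 to 13% of *Aire*-high cells (3.5%). At anti-RANKL week 6 the *Trpm5*-positive share, 7.69%, was below those of *Aire*-high (13%), cortical-marker (14.8%) and no-class cells (16.1%), and at anti-RANKL week 2 it was 23.5% against 30% in cells of no class.

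*Krt8* was detected in 80.8% to 94.4% of the thinned cells over all 4 classes and libraries. *Krt18* was detected in 63.8% to 94.4% of *Aire*-high cells (median library 68.9%) and in 82.1% to 98% of the other classes. *Krt17* was detected in 94.7% to 98.3% of *Ccl21a*-high, 80.2% to 93.3% of *Aire*-high, 61.2% to 85.2% of cortical-marker and 31.6% to 76.9% of *Trpm5*-positive cells. In T-cell droplets, between 6 and 18 per library, the shares over all 64 were 26.6% for *Krt5*, 34.4% for *Krt14*, 25% for *Krt7*, 1.56% for *Krt19*, 54.7% for *Krt8*, 50% for *Krt18* and 67.2% for *Krt17*. They are given as values only, since these droplets hold epithelial RNA. Shallow cells and the sort limit all these shares, which count cells with a UMI and not cells that express the gene.

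*Krt18* was detected more often in cells with *Krt8* than in cells without in each of the 4 classes, and other pairs differed by class. In thinned *Aire*-high cells *Krt18* was detected in 74.3% of cells with *Krt8* and in 51.6% of those without, and the shares were 92.4% and 83.8% in *Ccl21a*-high, 90.3% and 66.7% in *Trpm5*-positive and 91.4% and 73.7% in cortical-marker cells, higher with *Krt8* in 6, 7, 6 and 5 of 7 libraries. The rank correlation of their thinned counts over cells had a median over 7 libraries of 0.43, 0.30, 0.54 and 0.57, as a description of cells that share a library and a depth. *Krt14* was detected in 88.8% of *Ccl21a*-high cells with *Krt5* and in 70.1% of those without, in 58.9% and 47.1% of cortical-marker cells, and in 56.5% and 35.9% of *Aire*-high cells, higher with *Krt5* in 7, 5 and 6 of 7. The shares in *Trpm5*-positive cells were 17.3% and 14.3%, and the share was higher with *Krt5* in 3 of 7 libraries. Of 138 thinned *Ccl21a*-high cells with *Krt15*, 135 also had *Krt5* (97.8%, against 89.4% of cells without *Krt15*, higher in 7 of 7 libraries). *Krt7* and *Krt19* did not pair in that class, where *Krt19* was detected in 4.48% of cells with *Krt7* and 8.38% of those without (higher with *Krt7* in 2 of 7 libraries). In *Trpm5*-positive cells *Krt19* was detected in 32.6% of cells with *Krt8* and 27.8% of those without (higher in 5 of 7).

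Across the treatments, keratin levels within a class can only be described, since each anti-RANKL time and the lineage tracing library is a single sample, and the Poisson 95% intervals given here cover counting error only. In *Ccl21a*-high cells *Krt17* was 5789 ± 510 CPM in the controls (SD, n = 2). It was 4188 (4135 to 4240) at anti-RANKL week 2, 3761 (3702 to 3821) at week 4, 2980 (2884 to 3079) at week 6 and 3548 (3450 to 3647) at week 10, and 4510 (4461 to 4560) in the lineage tracing library. Both controls, at 6150 (6046 to 6255) and 5429 (5311 to 5549), thus lay above the other 5 libraries. *Krt5* in the same cells was 1818 ± 341 in the controls, and the values of 1483 to 2616 in the other libraries lay on both sides. *Krt14* was 1970 ± 69.7 in the controls, 1742 to 1879 at weeks 2, 4 and 6, 2474 at week 10 and 2827 in the lineage tracing library. *Krt7* was 832 ± 2.75 in the controls, 1037 and 1105 at weeks 2 and 4, 754 and 636 at weeks 6 and 10 and 762 in the lineage tracing library. *Krt8* was 1493 ± 79.4 in the controls, above the 1100 to 1298 of the others, and *Krt18* was 1769 ± 118 in the controls, with 1362 to 2228 in the others.

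In *Aire*-high cells *Krt17* was 1731 ± 109 CPM in the controls (SD, n = 2), 2384, 2689, 1551 and 1672 at anti-RANKL weeks 2, 4, 6 and 10, and 3102 in the lineage tracing library. *Krt14* was 274 ± 17.6 in the controls and 273, 380, 493 and 355 after anti-RANKL, with 460 in the lineage tracing library. *Krt8* was 1585 ± 232 in the controls, and the other libraries ranged from 1160 to 1991. The week 4 values rest on 18 cells, and the interval of *Krt17* there was 2439 to 2957. In *Trpm5*-positive cells the controls themselves differed widely, with *Krt17* at 1081 ± 667 and *Krt19* at 703 ± 277, and the 307 to 1277 and the 176 to 1061 of the other libraries overlapped the controls. In cortical-marker cells *Krt18* was 2812 ± 1672 in the controls, with 1630 at week 2 and 3994 at week 10, a range that held all other libraries but anti-RANKL week 10 (4025).

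Genes that anchor or control keratin filaments were looked at in lists. In *Ccl21a*-high against *Aire*-high cells, 7 of 9 desmosome genes tested (14 listed) were called higher and 1 lower (median log2 fold change 0.91, against 0.11 over all genes), and 8 of 9 hemidesmosome genes higher and 0 lower (1.10), where 25.4% of all genes were called higher and 18.3% lower. In cortical-marker against *Aire*-high cells the counts were 6 and 2 (0.98, against 0.15 over all genes) and 7 and 0 (1.10), with 30.4% and 16.9% of all genes. In *Trpm5*-positive against *Aire*-high cells they were 3 and 1 (0.25, against 0.11) and 3 and 3 (-0.16), with 29.3% and 17.2% of all genes. In cortical-marker against *Ccl21a*-high cells they were 1 and 2 (0.01, against 0.08) and 0 and 2 (-0.10), with 9.53% and 5.99%. Of 4 plakins and filament linkers tested (9 listed), 0, 1, 1 and 1 were called higher and 0, 1, 0 and 0 lower in these comparisons as first listed, *Ccl21a*-high, *Trpm5*-positive and cortical-marker against *Aire*-high and cortical-marker against *Ccl21a*-high (medians 0.02, -0.11, -0.09 and -0.10). Beside them, 25.4%, 29.3%, 30.4% and 9.53% of all genes were called higher and 18.3%, 17.2%, 16.9% and 5.99% lower. Of 9 other intermediate filament genes tested (16 listed), 2, 2, 1 and 1 were called higher and 3, 5, 4 and 3 lower (-0.12, -0.90, -0.56 and -0.01), and of 7 epithelial transcription factors tested (14 listed) 4, 4, 4 and 1 higher and 1, 1, 1 and 3 lower (0.59, 1.72, 0.62 and -0.16).

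*Trp63*, the regulator of basal epithelium, ranged from 106 to 192 CPM in *Ccl21a*-high cells (median 155) and from 193 to 256 in cortical-marker cells (238), against 12.2 to 68.6 in *Aire*-high cells (18.6). Neither range met that of *Aire*-high cells, and the differences were 2.29 (limma, log2 fold change, SE 0.16, adjusted p = 2.07e-11) and 2.86 (SE 0.16, adjusted p = 1.00e-12), each in 7 of 7 libraries. *Perp*, a desmosome component, was higher in *Ccl21a*-high than in *Aire*-high cells in 7 of 7, at 440 to 643 against 71 to 146 (2.35, adjusted p = 2.07e-11). In *Trpm5*-positive cells *Klf5* (68.3 to 99.9 against 0 to 6.71 in *Aire*-high cells, 2.72, adjusted p = 4.64e-13) and *Elf3* (136 to 369 against 18.6 to 44.5, 2.48, adjusted p = 6.61e-10), both epithelial transcription factors, were higher in 7 of 7. *Foxn1*, the master regulator of thymic epithelium, was lower there in 7 of 7, at 13.6 to 25.4 against 61.8 to 93.9 (-1.60, adjusted p = 1.03e-07). *Klf5* was under the filter of 10 CPM in every *Aire*-high library. Its difference may follow in part from the filter, and its p-value supports nothing.

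*Vim*, the mesenchymal intermediate filament, was lower than in *Aire*-high cells (285 to 558 CPM) in *Trpm5*-positive cells (13.9 to 223; limma, log2 fold change -1.90, adjusted p = 0.00022, lower in 7 of 7) and in cortical-marker cells (20.3 to 174; -2.10, adjusted p = 6.40e-05, lower in 7 of 7). It was also lower in cortical-marker than in *Ccl21a*-high cells in 6 of 7 (-1.37, adjusted p = 0.0135). *Synm*, a filament protein of muscle, was higher in cortical-marker cells, at 56.3 to 155, than in *Aire*-high cells at 2.24 to 9.87 (2.62, adjusted p = 3.01e-10) and in *Ccl21a*-high cells at 25.3 to 45.9 (0.97, adjusted p = 0.0016), in 7 of 7 libraries each. *Des*, the muscle filament, was lower in cortical-marker than in *Ccl21a*-high cells in 7 of 7 (4.44 to 43.4 against 27.6 to 123; -1.57, adjusted p = 4.25e-05), and the desmosomal cadherin *Dsc3* was higher (77.1 to 130 against 49.6 to 66.3; 0.68, adjusted p = 0.00658). The neuronal filaments *Prph* and *Nefh* were lower in *Ccl21a*-high than in *Aire*-high cells, in 6 and 5 of 7 libraries (limma, -2.01, adjusted p = 0.00046, and -1.05, adjusted p = 0.0315). *Prph* was also lower in cortical-marker than in *Aire*-high cells in 6 of 7 (-2.01, adjusted p = 0.000434). Their medians in *Aire*-high cells were 60.9 and 16.2 CPM. In *Ccl21a*-high cells they reached at most 7.78 and 7.07, and *Prph* at most 6.43 in cortical-marker cells, under the filter of 10 CPM. These lower values may follow in part from the filter, and their p-values support nothing. *Synm* was also under 10 CPM in every *Aire*-high library, and the part of the filter in that difference was not tested.

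Promoters of members that moved together or apart are shown for what their sequences share. Each window is the 250 bases before the gene start in RefSeq (build GRCm38.p6), which can differ from that in GENCODE vM21. Of the 49 keratins, 34 had an entry. Both strands were searched for the TATA box, as TATAAA. A binding motif of AP-1 factors was searched for as TGANTCA. The GC box was searched for as GGGCGG. These strings were chosen after the data had been seen, and none contains another. TATAAA was present in 16 of 34 keratin promoters (47.1%), against 12.4% of all 32851 promoters, TGANTCA in 1 (2.94%, against 6.75%) and GGGCGG in 2 (5.88%, against 32.7%). Of the 10 tested keratins with an entry, 3 had TATAAA (30%), and of the 24 rare ones, 13 (54.2%). The sequences of *Krt5* (chr15:101712906-101713155, minus strand), *Krt14* (chr11:100206031-100206280, minus strand) and *Krt7* (chr15:101412153-101412402, plus strand) are those of the 3 members most raised in *Ccl21a*-high against *Aire*-high cells. Those of *Krt20* (chr11:99438154-99438403, minus strand) and *Krt76* (chr15:101892921-101893170, minus strand) belong to the tested members that were lowest in *Ccl21a*-high cells relative to *Aire*-high cells. The windows of *Krt7* and *Krt14* lie inside the gene as GENCODE vM21 annotates it, and the others lie just before it. Each is written 5′ to 3′ on the strand of the gene, with matches in capitals.
Krt5: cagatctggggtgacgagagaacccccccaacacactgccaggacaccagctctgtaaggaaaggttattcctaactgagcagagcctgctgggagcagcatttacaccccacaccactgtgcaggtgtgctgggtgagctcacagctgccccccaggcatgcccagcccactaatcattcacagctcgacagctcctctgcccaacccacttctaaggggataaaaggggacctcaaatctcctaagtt
Krt14: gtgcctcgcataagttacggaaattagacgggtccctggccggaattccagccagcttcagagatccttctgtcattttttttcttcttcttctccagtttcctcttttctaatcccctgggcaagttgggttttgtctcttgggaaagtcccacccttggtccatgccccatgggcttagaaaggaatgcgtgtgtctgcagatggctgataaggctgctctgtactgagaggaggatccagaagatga
Krt7: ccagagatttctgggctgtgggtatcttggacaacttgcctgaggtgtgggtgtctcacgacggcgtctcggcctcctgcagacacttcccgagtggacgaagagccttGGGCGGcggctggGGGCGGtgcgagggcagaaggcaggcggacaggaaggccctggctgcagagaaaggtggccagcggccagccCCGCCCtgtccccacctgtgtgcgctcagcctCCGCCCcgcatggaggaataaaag
Krt20: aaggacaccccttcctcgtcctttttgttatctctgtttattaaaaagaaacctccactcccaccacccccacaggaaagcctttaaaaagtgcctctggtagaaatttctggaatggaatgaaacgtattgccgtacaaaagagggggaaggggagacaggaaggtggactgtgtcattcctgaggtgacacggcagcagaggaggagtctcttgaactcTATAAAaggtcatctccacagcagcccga
Krt76: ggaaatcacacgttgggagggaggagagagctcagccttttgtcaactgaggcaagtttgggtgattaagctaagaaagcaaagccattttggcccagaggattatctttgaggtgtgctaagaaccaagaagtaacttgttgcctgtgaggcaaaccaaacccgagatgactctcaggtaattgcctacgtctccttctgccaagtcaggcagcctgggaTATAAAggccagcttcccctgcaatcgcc
*Krt20* and *Krt76* hold a TATAAA that begins at base -29 from the RefSeq gene start. *Krt7* holds 4 GC boxes, and *Krt5* and *Krt14* hold none of the 3 strings in these windows. Those of *Krt7* and *Krt14* lie inside the annotated gene, so they may not show its promoter. A match is a description of letters and not of a site in use.

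Each library pooled 3 thymi and all but the controls differ in treatment, so differences between single treatments carry no test. Classes rest on thresholds for a few transcripts, and cells that hold a transcript of a class gene from another cell cannot be told apart from cells that express it.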

How the data were processed

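With Cell Ranger 2.2.0 and Seurat 2.3.4 on mm10, the authors scaled each cell and deposited ln(1 + x), the natural log. UMIs were recovered from them, whole to within 0.001 in 100% of values, and the cells sum to 10000, which differs from the scale factor the methods give. Genes were listed if found in at least 3 cells of a library, so an absent gene counts as 0. The paper names no doublet step, and none were removed. Sums of at least 10 cells (28 class sums) were compared with limma 3.58.1 in R 4.3.3, with the library as block, and p-values were adjusted over all genes. Sums, shares and plots were made in Python 3.11.15 with matplotlib 3.10.9, pandas 2.3.3, scipy 1.17.1 and numpy 2.4.6. The fit was tried on simulated data with known differences, and 18 alternatives were run. Members and lists were chosen with earlier results of these data known. Every keratin may be named, those with a mean of at least 100 CPM with values per library and other called keratins by fold and adjusted p. Of the partner lists, the 2 called members with the largest change in each direction are named in each comparison.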

Additional observations from a re-analysis of the deposited data

Results flagged for a closer look

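*Krt14* was lower in cortical-marker than in *Aire*-high cells in anti-RANKL week 10, with a log2 difference of -0.39 (270 against 355 CPM), while it was higher in both isotype controls (887 against 262 at week 2 and 655 against 287 at week 10). The Poisson 95% intervals, 218 to 330 and 338 to 372 in anti-RANKL week 10, did not overlap, but they cover counting error only and not variation among cells or animals. It stands out because the controls moved 1 way and this library the other, and the difference between these groups was not tested.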

How the results depend on the processing

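Over the alternatives, 973 keratin fold changes kept their direction and side of the threshold, 37 lost the call, 25 gained one and 13 turned. With no filter, 23, 18 and 20 of 49 keratins were called in *Ccl21a*-high, *Trpm5*-positive and cortical-marker against *Aire*-high cells, and with a filter of 50 CPM 5, 5 and 5 of 7, where 11, 10 and 11 of 15 were called otherwise; the number tested differs. In the controls and lineage tracing library alone, 4 were called in cortical-marker against *Ccl21a*-high cells (7 otherwise), with fewer samples. Leaving out 1 library gave 10 to 11, 8 to 10, 10 to 12 and 6 to 8 calls. Without the library block, 11, 9, 11 and 6 were called. The share of cells with both types was 100%, 100%, 98.0% and 100% (median library) without thinning and 98.0%, 100%, 98.6% and 100% at 4000 UMIs. Thinning to 4000 UMIs also left out 122 *Aire*-high, 513 *Ccl21a*-high, 43 *Trpm5*-positive and 51 cortical-marker cells that were shallower. The part of depth in these shares was not tested apart from that. The ratio of type I to II in *Trpm5*-positive cells was 1.58 when thinned (1.85 otherwise). With overlapping classes, keratins reached 7142 CPM in *Trpm5*-positive cells (6217 otherwise) and 11008 in cortical-marker cells (8828).

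With overlapping classes the direction turned against *Aire*-high cells for *Krt14* (0.23), *Krt7* (0.40) and *Krt15* (0.19) in *Trpm5*-positive cells and *Krt17* (0.26) in cortical-marker cells, and for *Krt16* (0.08) in cortical-marker against *Ccl21a*-high cells. In *Trpm5*-positive against *Aire*-high cells it turned with size factors for *Krt10* (-0.01) and *Krt5* (-0.13), and for *Krt5* with the mean of deposited values (-0.22) and without the week 2 control (-0.17; -0.17 to 0.28 leaving out 1 library). In cortical-marker against *Ccl21a*-high cells it turned for *Krt10* (-0.16), *Krt76* (-0.16) and *Krt79* (-0.0) with thinned cells and for *Krt20* (-0.02) in the controls and lineage tracing library alone. The cause was not tested.

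Counts over all genes moved by more than 1.5 times with the filter at 50 CPM (869, 966, 991 and 478 higher and 646, 641, 598 and 281 lower, against 2232, 2575, 2667 and 837 higher and 1606, 1511, 1486 and 526 lower otherwise), where fewer genes were tested. Without the filter, 3260, 2895 and 3072 were lower against *Aire*-high cells. With thinned cells, 1194, 1478, 1513 and 218 were higher, and 989 and 304 were lower in the first and last comparison. In cortical-marker against *Ccl21a*-high cells, 529 were higher and 329 lower in the controls and lineage tracing library alone, and 522 were higher without the week 10 control. Depth limits the shares of cells, since a cell of 2000 UMIs shows few transcripts of a gene at 100 CPM or less.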

Other observations

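In cells thinned to 2000 UMIs, *Krt10* was detected in 22 of 50 cells of no class with *Krt1* (44.0%) and in 10.0% of those without, with the higher share among cells with *Krt1* in 5 of 7 libraries. The shares were 14.3% (2 of 14) and 5.56% in *Aire*-high cells, 11.1% (3 of 27) and 9.48% in *Ccl21a*-high cells, 0 of 6 and 7.41% in *Trpm5*-positive cells and 0 of 7 and 9.67% in cortical-marker cells. *Krt16* was detected in 7 of 38 cells of no class with *Krt6a* (18.4%) and in 4.96% of those without, with the higher share in 4 of 7 libraries. It was detected in 1 of 15 *Ccl21a*-high cells with *Krt6a* (6.67%, against 1.71%) and in 0 of 2 *Aire*-high, 0 of 2 *Trpm5*-positive and 0 of 4 cortical-marker cells with it. Cells of no class also held transcripts of other cell types, among them *Pth*, and their part in these shares was not tested.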
